A study of Mus musculus with 18 samples.

Results

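The mTORC1 and amino acid sensing components followed here in mouse liver are 10 genes that encode the growth kinase complex mTORC1 and proteins that report amino acid supply to it: Mtor, Rptor, Rheb, Tsc1, Tsc2, Rragc, Rragd, Flcn, Depdc5 and Sesn3. They were chosen by name, with earlier results of these data known. They are 10 of the 37315 genes of the count table, and all 10 passed the filter on low counts. RNA with poly(A) tails was sequenced from 18 livers of C57BL/6J mice in 6 groups of 3. At each of 2, 8 and 16 weeks of age, 1 group had received L-asparaginase (Elspar), the leukaemia drug that breaks down circulating asparagine and glutamine, and the other an equal volume of phosphate-buffered saline (PBS). Asparaginase was injected into the peritoneum at 3 IU per g of body weight each morning, 7 times at 2 and 16 weeks and 8 times at 8 weeks. All mice were killed 7.5 h after the last morning injection, so each value is a single time point after repeated dosing. Each group holds 1 or 2 libraries of each labelled sex, and the labels give the same genetic background for all groups, with no mutation. Each library was taken as 1 mouse; whether animals were pooled is not given in the sources used here.

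mTORC1 is the kinase mTOR held with its substrate-binding subunit Raptor (Rptor). It is recruited to the lysosome by Rag GTPase pairs when amino acids are plentiful, and switched on there by the small GTPase Rheb. The Tsc1 and Tsc2 proteins shut Rheb off, GATOR1, the complex that Depdc5 belongs to, inactivates RagA and RagB when amino acids run short, and folliculin (Flcn) sets the nucleotide state of RagC and RagD. In liver, mTORC1 promotes protein and lipid synthesis after feeding and holds back autophagy. The kinase is controlled largely through protein binding and phosphorylation, which RNA levels do not show.

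The libraries held 24690871 to 46949361 counts, and each of the 10 genes had enough counts for testing in the 16213 genes that were kept. All levels are CPM, the counts of a gene relative to the size of its library after TMM scaling, which allows for the Mup (major urinary protein) transcripts, which took between 0.046% and 47.9% of a library. Hepatocyte transcripts were abundant in every group, with the sum of 6 markers between 52400 and 98200 CPM and no marker at 0. Asns, the asparagine synthetase gene that responds to loss of asparagine, was higher in asparaginase than in PBS livers at every age, by 2.85 at 2 weeks, 1.80 at 8 weeks and 4.27 at 16 weeks on the log2 scale (adjusted p = 0.000203, 0.0392 and 1.08e-05). At 2 weeks, asparaginase replicate 3, labelled female, and PBS replicates 1 and 2, labelled male, each held both the female transcript Xist (263 to 361 CPM) and transcripts of the Y chromosome (52.4 to 57.3 CPM). Asparaginase replicates 1 and 2 of 8 weeks held 763 and 411 CPM of 12 squamous epithelium genes, while the other 16 libraries held 2.01 to 66.4 CPM. Without the 3 libraries of mixed sex, Asns was at 2.93 at 2 weeks (adjusted p = 0.0774) and 1.82 at 8 weeks (adjusted p = 0.0530), and without the 2 with squamous transcripts at 1.85 at 8 weeks (adjusted p = 0.123). The 2-week Asns call was also lost without asparaginase replicate 1 of that age (2.63, adjusted p = 0.141). The 8-week call was lost in 7 of 18 fits that left out 1 library (1.5 to 1.82, adjusted p = 0.0534 to 0.862): those without asparaginase replicate 2 of 2 weeks, replicate 1 of 8 weeks or replicate 1 of 16 weeks, or PBS replicate 2 of 2 weeks, replicate 3 of 8 weeks or replicate 1 or 2 of 16 weeks. Where a call by edgeR described here for a single gene was lost without the mixed-sex libraries or without those with squamous transcripts, the value without them is given. The first of these fits leaves 1 PBS library at 2 weeks, and the second leaves 1 asparaginase library at 8 weeks. A call can be lost there through fewer libraries alone, so such a loss cannot be put down to the transcripts named. In whole liver, fewer cells of a type and less RNA per cell cannot be told apart.

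On GRCm38 the 3 genes Mtor (chr4:148448611-148557683), Rragc (chr4:123917446-123936997) and Rragd (chr4:32983037-33022180) lie on chromosome 4. Flcn (chr11:59791408-59810016) and Rptor (chr11:119602905-119899576) lie on chromosome 11, Rheb (chr5:24802823-24842624) and Depdc5 (chr5:32863701-32994236) on chromosome 5, Tsc1 (chr2:28641228-28691167) on chromosome 2, Tsc2 (chr17:24595816-24632630) on chromosome 17 and Sesn3 (chr9:14275067-14333101) on chromosome 9. Levels were compared between genes only per kb of exon, using the merged exons of GENCODE M21 on GRCm38. Merged exons cover all annotated transcripts of a gene. Which of these liver uses was not tested, so the order of genes holds for this length only. Rragc, which encodes a Rag subunit, had the highest median over the 18 libraries at 10.1 CPM per kb. Flcn followed at 7.71 CPM per kb, with a range of 5.04 to 11.5 that overlapped the 8.38 to 12.2 of Rragc. Mtor and Rheb lay close together at 3.77 and 3.69 CPM per kb, and their ranges over libraries overlapped (2.75 to 5.33 and 2.94 to 4.00). Tsc2 had 3.11 CPM per kb (2.59 to 3.6), which overlapped Mtor and Rheb. Rptor and Tsc1 both had 2.09 CPM per kb, and the range of Rptor (1.73 to 2.37) lay wholly below that of Tsc2 while that of Tsc1 (1.55 to 2.82) did not. Depdc5 (0.876), Rragd (0.47) and Sesn3 (0.374 CPM per kb) were the lowest; the range of Rragd (0.33 to 1.46) overlapped both others, while Depdc5 (0.637 to 1.12) lay wholly above Sesn3 (0.238 to 0.621). Rragc, which takes the same place in the Rag pair as Rragd, was above the highest Rragd library (1.46 CPM per kb) in all 18 libraries. Exons of 3 of the genes are shared in part with a gene on the other strand: 7.9% of Rragc bases with 4930535I16Rik, 7.2% of Tsc2 bases with Pkd1 and 0.62% of Rptor bases with Rptoros. Whether counting used strand is not given in the sources used here, so reads of those stretches cannot be assigned to one gene.

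**Figure D1:**
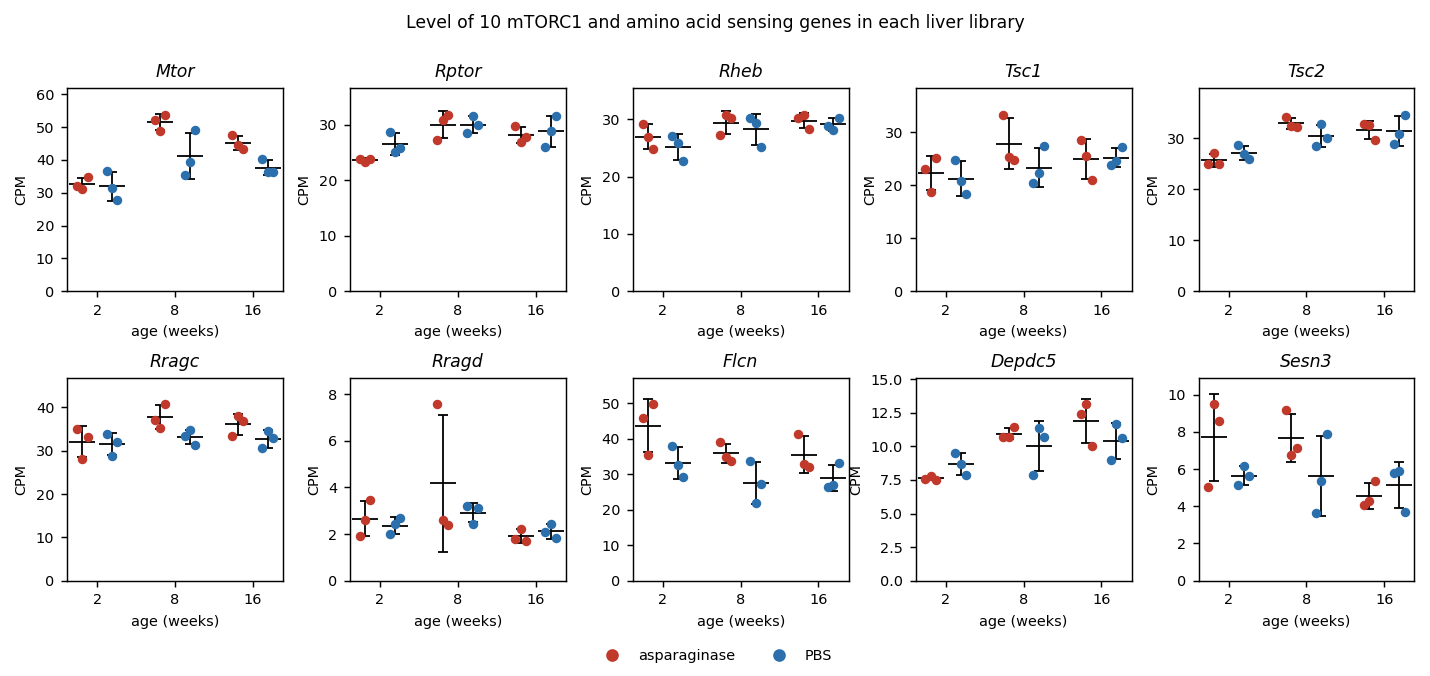
Each panel plots 1 gene in CPM (vertical axis, from 0) against age in weeks. Points are single libraries, asparaginase in red to the left of PBS in blue, and the black marks are mean and SD of 3 libraries; asparaginase replicate 1 of 8 weeks stands alone for Rragd at 7.57 CPM, and the Flcn means are 43.7, 35.8 and 35.5 CPM in asparaginase mice of 2, 8 and 16 weeks, against 33.2, 27.5 and 28.8 CPM in PBS mice.

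Flcn, the 1 gene of the 10 that passed the test for asparaginase, is shown first by its promoter, from 250 bases before to 50 after the RefSeq transcription start on GRCm38.p6. Rragc, Rheb and Fnip1, a folliculin partner described further on, are shown because their promoters hold the E-box CACGTG that TFEB and TFE3 bind. These transcription factors are held in the cytoplasm when mTORC1 phosphorylates them, a step that needs folliculin. Flcn lies at chr11:59809990-59810289 (minus strand), Fnip1 at chr11:54437929-54438228 (plus strand), Rragc at chr4:123917183-123917482 (plus strand) and Rheb at chr5:24842312-24842611 (minus strand). Each is printed 5′ to 3′ on its own strand, with the E-box in capitals.
Flcn: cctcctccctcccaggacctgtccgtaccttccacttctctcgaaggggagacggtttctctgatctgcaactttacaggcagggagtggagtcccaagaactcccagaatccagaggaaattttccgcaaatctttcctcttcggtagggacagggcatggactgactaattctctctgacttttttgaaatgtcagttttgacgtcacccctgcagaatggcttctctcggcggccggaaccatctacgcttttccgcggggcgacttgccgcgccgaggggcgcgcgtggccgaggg
Fnip1: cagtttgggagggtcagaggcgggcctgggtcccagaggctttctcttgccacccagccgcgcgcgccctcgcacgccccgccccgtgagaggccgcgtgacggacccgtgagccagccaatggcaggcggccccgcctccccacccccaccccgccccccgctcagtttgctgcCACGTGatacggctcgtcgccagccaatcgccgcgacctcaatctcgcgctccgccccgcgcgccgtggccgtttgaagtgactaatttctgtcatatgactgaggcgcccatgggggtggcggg
Rragc: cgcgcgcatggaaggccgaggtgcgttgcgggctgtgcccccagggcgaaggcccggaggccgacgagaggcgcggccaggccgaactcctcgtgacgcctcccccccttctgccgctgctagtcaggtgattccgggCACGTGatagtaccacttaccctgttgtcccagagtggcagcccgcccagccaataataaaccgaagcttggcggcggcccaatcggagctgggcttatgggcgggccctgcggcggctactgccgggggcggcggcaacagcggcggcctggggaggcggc
Rheb: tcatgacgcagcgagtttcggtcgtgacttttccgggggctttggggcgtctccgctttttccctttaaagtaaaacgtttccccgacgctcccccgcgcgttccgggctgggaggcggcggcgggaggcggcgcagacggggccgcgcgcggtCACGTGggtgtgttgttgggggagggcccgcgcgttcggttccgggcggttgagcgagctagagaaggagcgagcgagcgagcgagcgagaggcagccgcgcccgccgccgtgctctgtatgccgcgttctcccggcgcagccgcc
The E-box lies 75 to 70 bases before the start in Fnip1, 112 to 107 before it in Rragc and 96 to 91 before it in Rheb. Both strands were searched, and 7.15% of the 32851 RefSeq promoters of this length held the motif. Its presence in 2 of the 10 genes describes these letters and shows no binding. The amino acid response core TGATGNAA, bound by ATF4, was in none of the 10 promoters and in 3.97% of all promoters. The forkhead element GTAAACA, bound by FoxO proteins, was in none of the 10 and in 3.65% of all. The promoter of Sesn2, a pathway gene described further on, was also searched and held none of these motifs. No match says only that these letters are not in this window.

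The first question was whether the livers of asparaginase-treated mice held different amounts of these transcripts than those of PBS mice of the same age. Most differences were small. Flcn was higher over the 3 ages together, and no other gene of the 10 passed the test in any comparison of asparaginase with PBS. With edgeR's quasi-likelihood test and p adjusted over all 16213 genes, 0 of 10 passed at 2 weeks, where 0.432% of all genes did. The counts were also 0 of 10 at 8 weeks (0.364% of all genes) and 0 of 10 at 16 weeks (0.234%). At an unadjusted p under 0.05 there were 1, 4 and 0 of 10 at 2, 8 and 16 weeks, against 12.6%, 18.4% and 11.4% of all genes. DESeq2 called 0, 1 and 0 of the 10, and limma-voom 0, 0 and 0. Over all the alternative fits listed further on, the number of all genes called ranged from 0 to 432 at 2 weeks. At 8 weeks it ranged from 0 to 3111 and at 16 weeks from 5 to 322. For the mean of the 3 log2 fold changes, 1 of 10 passed (Flcn), where 5.41% of all genes did, 2.55% upward. The median log2 fold change of the 10 was 0.06 at 2 weeks, 0.24 at 8 weeks and 0.01 at 16 weeks, against -0.01, 0.01 and 0.00 over all genes tested. For the mean effect it was 0.12, against 0.00 over all genes. At 8 weeks 9 of the 10 had a positive log2 fold change, including genes that activate and genes that inhibit the complex. The share of positive values over all genes was not counted. Without the libraries with squamous transcripts Rragd turned negative at this age and Tsc1 fell, as given below.

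**Figure D2:**
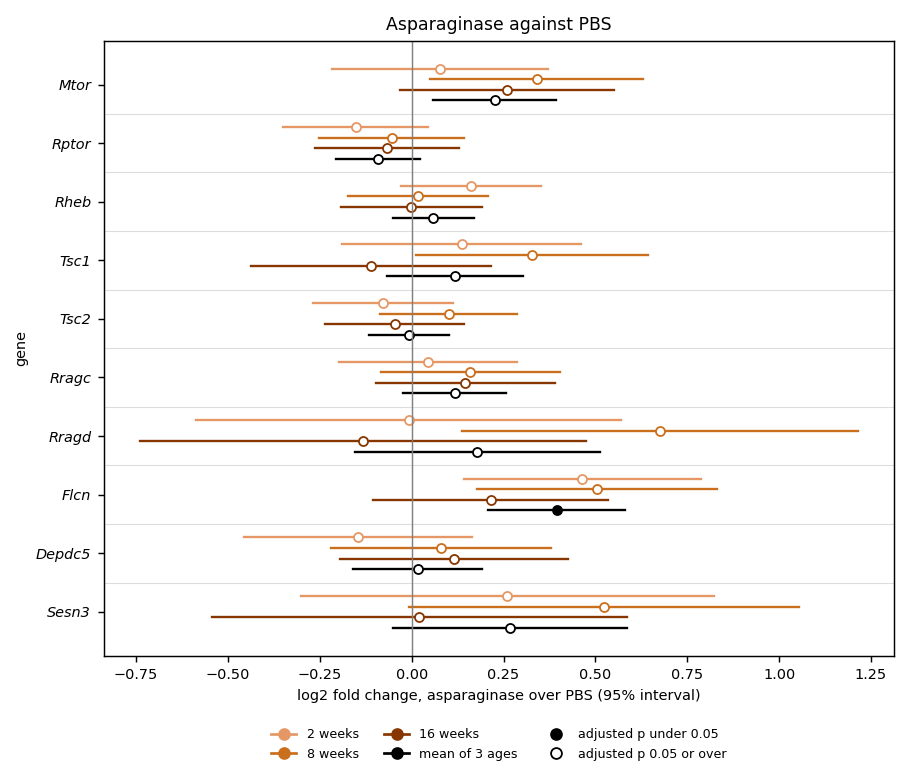
Log2 fold change of asparaginase over PBS (horizontal axis) for each gene at 2, 8 and 16 weeks and as the mean of the 3 ages, with 95% intervals as lines. The only filled point, at an adjusted p under 0.05, is the mean for Flcn at 0.39.

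Mtor, the kinase itself, had 32.2, 31.0 and 34.7 CPM in asparaginase livers of 2 weeks, against 36.7, 31.5 and 27.8 CPM in PBS livers. At 8 weeks it had 52.1, 48.9 and 53.9 CPM in asparaginase livers, against 35.4, 39.5 and 49.1 CPM in PBS livers. At 16 weeks the values were 47.5, 44.5 and 43.3 CPM in asparaginase livers, against 40.3, 36.2 and 36.4 CPM in PBS livers. The groups overlapped at 2 and 8 weeks, and at 16 weeks all 3 asparaginase libraries lay above all 3 PBS libraries. That was 1 of the 10 genes, where 19.7% of all genes had groups apart at this age, 10.1% upward. The log2 fold change was 0.08 (95% interval -0.22 to 0.37) at 2 weeks, 0.34 (0.05 to 0.63) at 8 weeks and 0.26 (-0.03 to 0.55) at 16 weeks, and none passed (adjusted p = 0.902, 0.208 and 0.503). The mean over ages was 0.23 ± 0.0778 (SE, adjusted p = 0.112). Without PBS replicate 3 of 8 weeks, the highest PBS library, it was 0.27 and passed (adjusted p = 0.0384).

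Rptor, the subunit that binds mTORC1 substrates, had 23.8, 23.3 and 23.8 CPM in asparaginase livers of 2 weeks, against 28.8, 25.1 and 25.8 CPM in PBS livers. All 3 asparaginase libraries were below all 3 PBS libraries, as were those of Depdc5, so that 2 of 10 genes had groups that did not overlap at this age, where 16.7% of all genes had, 8.64% downward. The difference for Rptor was -0.15 (-0.35 to 0.04, adjusted p = 0.563). At 8 and 16 weeks its log2 fold changes were -0.05 and -0.07, with intervals from -0.26 to 0.14 over both ages.

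Rheb, the GTPase that activates mTORC1, had log2 fold changes of 0.16, 0.02 and -0.00 at 2, 8 and 16 weeks. Its 9 asparaginase libraries ranged from 24.8 to 30.9 CPM and its 9 PBS libraries from 22.7 to 30.3 CPM. The mean log2 fold change was 0.06 (-0.05 to 0.17, adjusted p = 0.526). The intervals were -0.03 to 0.35 at 2 weeks, -0.17 to 0.21 at 8 weeks and -0.19 to 0.19 at 16 weeks.

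The 2 genes of the complex that shuts Rheb off did not pass either. Tsc1, the stabilising subunit, had 33.4, 25.3 and 24.8 CPM in asparaginase livers of 8 weeks, against 20.4, 22.3 and 27.4 CPM in PBS livers. The groups overlapped, and the highest value was that of asparaginase replicate 1. The log2 fold change was 0.33 at 8 weeks (0.01 to 0.64, adjusted p = 0.256), 0.14 at 2 weeks and -0.11 at 16 weeks (intervals -0.19 to 0.46 and -0.44 to 0.21). Without the 2 libraries with squamous transcripts Tsc1 was at 0.15 at 8 weeks. Tsc2, the subunit that acts on Rheb, had a mean log2 fold change of -0.01 with an interval of -0.12 to 0.10. Its difference at single ages lay between -0.08 and 0.10.

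Rragc was more abundant per kb than Rragd, the other Rag gene of the 10. It had 37.0, 35.3 and 40.7 CPM in asparaginase livers of 8 weeks, against 33.5, 34.7 and 31.4 CPM in PBS livers. The groups did not overlap, as for Flcn, which makes 2 of 10 genes at 8 weeks, where 15.9% of all genes had groups apart, 7.29% upward. The log2 fold change of Rragc was 0.16 (-0.08 to 0.40, adjusted p = 0.472) at 8 weeks, and 0.12 (-0.02 to 0.26, adjusted p = 0.312) as the mean over ages. Rragd, which can take the place of RagC in the Rag pair, had 7.57, 2.59 and 2.37 CPM in asparaginase livers of 8 weeks, against 3.19, 2.45 and 3.1 CPM in PBS livers. A single asparaginase library was high, and the other 2 lay within or below the PBS range. The log2 fold change was 0.68 (0.14 to 1.22, adjusted p = 0.185) at 8 weeks, -0.01 (-0.59 to 0.57) at 2 weeks and -0.13 (-0.74 to 0.48) at 16 weeks. The 8-week value was 0.03 without asparaginase replicate 1 of 8 weeks, -0.05 without both libraries with squamous transcripts and 1.27 without PBS replicate 2 of 8 weeks (adjusted p = 0.0525).

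Flcn, whose protein acts as the GTPase activator of RagC and RagD, had 45.8, 35.4 and 49.7 CPM in asparaginase livers of 2 weeks, against 37.9, 32.5 and 29.2 CPM in PBS livers. At 8 weeks it had 39.0, 34.8 and 33.7 CPM in asparaginase livers, against 33.6, 21.8 and 27.2 CPM in PBS livers. At 16 weeks it had 41.5, 32.9 and 32.0 CPM in asparaginase livers, against 26.5, 27.0 and 33.1 CPM in PBS livers. The asparaginase group had the higher mean at each age. The groups overlapped at 2 and 16 weeks and were just apart at 8 weeks, where the lowest asparaginase library had 33.7 CPM and the highest PBS library 33.6 CPM. The log2 fold change was 0.46 ± 0.149 (SE, adjusted p = 0.203) at 2 weeks, 0.50 ± 0.151 (adjusted p = 0.113) at 8 weeks and 0.21 ± 0.148 (adjusted p = 0.626) at 16 weeks. The mean over ages was 0.39 ± 0.0861 (SE, 95% interval 0.21 to 0.58, adjusted p = 0.0231), that is 1.31-fold. DESeq2 gave 0.39 with an adjusted p of 0.000878, and limma-voom 0.39 with an adjusted p of 0.0205. DESeq2 also called Flcn at 8 weeks alone (0.51, adjusted p = 0.0399).

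The call for Flcn depended on single libraries, although its direction did not. Leaving out 1 library at a time gave mean log2 fold changes between 0.34 and 0.44. The adjusted p exceeded 0.05 without asparaginase replicate 1 of 2 weeks (0.43, adjusted p = 0.0760), PBS replicate 2 of 8 weeks (0.34, adjusted p = 0.0704), PBS replicate 3 of 16 weeks (0.41, adjusted p = 0.0647) or asparaginase replicate 3 of 16 weeks (0.38, adjusted p = 0.104). Flcn was at 0.40 (adjusted p = 0.0729) without the 3 libraries of mixed sex, and at 0.43 (adjusted p = 0.118) without the 2 libraries with squamous transcripts. With no sex term it was at 0.36 (adjusted p = 0.0587). Pancreatic acinar transcripts also differed at 2 weeks: the sum of 12 acinar genes was 643 to 1850 CPM in asparaginase livers, against 76.1 to 192 CPM in PBS livers, with no marker at 0 in either group. At 8 weeks, where Flcn differed by a similar amount, that sum was 9.71 to 220 CPM in asparaginase livers, against 9.87 to 11.4 CPM in PBS livers, and at 16 weeks 13.5 to 4690 CPM in asparaginase livers, against 12.9 to 713 CPM in PBS livers. The Pearson r of Flcn with that sum was 0.49 over the 18 libraries. At 8 weeks the sum of 8 Kupffer cell genes was 180 to 221 CPM in asparaginase livers, against 234 to 420 CPM in PBS livers. That of 7 erythroid genes was 244 to 303 CPM in asparaginase livers, against 505 to 548 CPM in PBS livers. No marker of either list was at 0 throughout a group, but asparaginase replicate 3 of 8 weeks held only 6 of the 7 erythroid genes. The part of other cells in the Flcn result was not tested.

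Depdc5, the subunit through which GATOR1 contacts the Rag pair, had 7.60, 7.82 and 7.50 CPM in asparaginase livers of 2 weeks, against 9.48, 8.65 and 7.85 CPM in PBS livers. The groups were apart by a narrow margin, and the fitted log2 fold change was -0.15 (-0.46 to 0.16, adjusted p = 0.771). Over the 3 ages its mean was 0.02 (-0.16 to 0.19). Sesn3, a sestrin and FoxO target whose family restrains mTORC1 through GATOR2, had 9.16, 6.75 and 7.12 CPM in asparaginase livers of 8 weeks, against 3.64, 5.33 and 7.89 CPM in PBS livers. The groups overlapped through the highest PBS library. The log2 fold change of Sesn3 was 0.26 (-0.30 to 0.82) at 2 weeks, 0.52 (-0.01 to 1.05, adjusted p = 0.276) at 8 weeks and 0.02 (-0.54 to 0.58) at 16 weeks. At 8 weeks Sesn3 was at 0.41 without the libraries with squamous transcripts, 0.30 without PBS replicate 1 of 8 weeks and 0.81 without PBS replicate 3 of that age (adjusted p = 0.101).

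Whether the effect of asparaginase on these genes differed between ages was tested directly, and no difference passed. The count was 0 of 10 for 8 against 2 weeks, 0 of 10 for 16 against 2 weeks and 0 of 10 for 16 against 8 weeks, where 0%, 0% and 0.0123% of all genes passed with edgeR. The joint test over the 3 ages also gave 0 of 10 (0% of all genes). At an unadjusted p under 0.05 each of these counts was again 0, where 9.31%, 6.2% and 9.36% of all genes passed for the 3 differences and 9.43% for the joint test, and DESeq2 and limma-voom gave 0 in each. The intervals were wide for the scarce genes. For Rragd the effect at 16 weeks minus that at 8 weeks was -0.81 (-1.62 to 0.01), or -0.08 without the libraries with squamous transcripts, and for Sesn3 it was -0.50 (-1.28 to 0.27). For Flcn the effect at 16 weeks minus that at 2 weeks was -0.25 (-0.70 to 0.21).

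The next comparison set adult livers against 2-week livers within each treatment, a contrast of mature with suckling-age liver. In asparaginase mice Mtor, Tsc2, Rptor, Depdc5 and Rragd were higher at 8 weeks, and Mtor, Tsc2 and Depdc5 at 16 weeks. In PBS mice Mtor was higher at 8 weeks and Rheb at 16 weeks. In asparaginase mice, 5 of 10 were higher at 8 than at 2 weeks (29% of all genes passed, 13.7% upward) and 3 of 10 at 16 than at 2 weeks (26.6% of all genes, 12.9% upward). In PBS mice, 1 of 10 was higher at 8 than at 2 weeks (31.7% of all genes passed, 14.8% upward) and 1 of 10 at 16 than at 2 weeks (27.8%, 13.2% upward). Groups lay apart for 5 of 10 genes, all higher, at 8 against 2 weeks in asparaginase mice (43.2% of all genes, 20.4% upward) and for 4 of 10, all higher, at 16 against 2 weeks (47.4%, 23% upward). In PBS mice the counts were 0 of 10 at 8 weeks (35% of all genes) and 2 of 10, both higher, at 16 weeks (39.7%, 19.5% upward). The median log2 fold change of the 10 was 0.31 and 0.13 at 8 and 16 weeks in asparaginase mice and 0.15 and 0.19 in PBS mice, with medians of -0.02 to -0.01 over all genes. The ages compared with 2 weeks share the 2-week libraries.

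**Figure D3:**
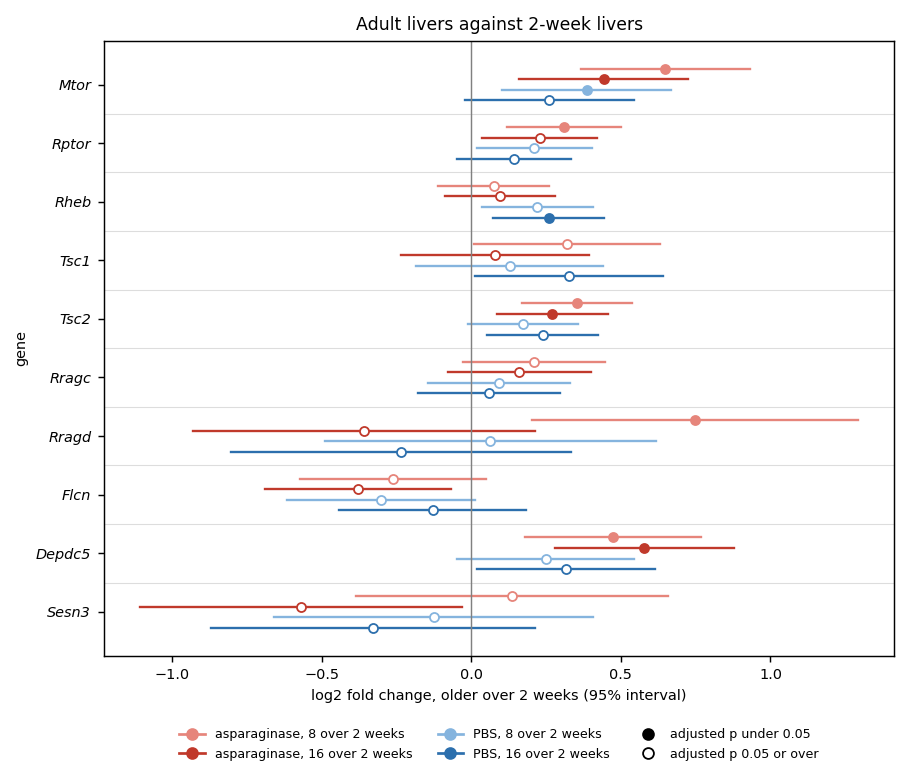
Log2 fold change of older over 2-week livers (horizontal axis) for each gene, with 95% intervals as lines, in asparaginase mice (reds) and PBS mice (blues). Filled points have an adjusted p under 0.05: Mtor, Rptor, Tsc2, Rragd and Depdc5 in asparaginase mice at 8 weeks, Mtor, Tsc2 and Depdc5 in those at 16 weeks, and Mtor at 8 and Rheb at 16 weeks in PBS mice.

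Mtor was higher by 0.65 ± 0.131 (SE, adjusted p = 0.00363) at 8 than at 2 weeks in asparaginase mice, and the groups did not overlap (48.9 to 53.9 CPM at 8 weeks, against 31.0 to 34.7 CPM at 2 weeks). At 16 weeks the difference from 2 weeks was 0.44 ± 0.131 (adjusted p = 0.0256). In PBS mice Mtor was higher by 0.39 ± 0.131 at 8 than at 2 weeks (adjusted p = 0.0396), with overlapping groups (35.4 to 49.1 CPM at 8 weeks, against 27.8 to 36.7 CPM at 2 weeks). That PBS call was lost in 13 of 18 fits with 1 library left out, which gave 0.22 to 0.49, and passed without PBS replicate 1 of any age, asparaginase replicate 1 of 2 weeks or asparaginase replicate 3 of 16 weeks. Without asparaginase replicate 1 of 2 weeks, the asparaginase contrasts for Mtor were 0.53 (adjusted p = 0.0871) at 8 weeks and 0.33 (adjusted p = 0.281) at 16 weeks. The 16-week call was also lost without asparaginase replicate 2 of 2 weeks or any 1 asparaginase library of 16 weeks (0.41 to 0.51, adjusted p = 0.0528 to 0.0881). Without the 3 mixed-sex libraries the PBS contrast for Mtor at 8 weeks was 0.55 (adjusted p = 0.0673). Without the 2 libraries with squamous transcripts it was 0.38 (adjusted p = 0.0704), and the asparaginase contrast at 8 weeks 0.75 (adjusted p = 0.0849).

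Tsc2 was higher in asparaginase mice by 0.35 ± 0.085 (SE, adjusted p = 0.0096) at 8 than at 2 weeks, with 34.1, 32.4 and 32.3 CPM at 8 weeks, against 24.9, 27.1 and 25.0 CPM at 2 weeks. It was higher by 0.27 ± 0.0853 at 16 than at 2 weeks (adjusted p = 0.0338). Depdc5 was higher by 0.47 ± 0.136 at 8 than at 2 weeks (adjusted p = 0.0219), with 10.7, 10.7 and 11.4 CPM at 8 weeks, against 7.60, 7.82 and 7.50 CPM at 2 weeks. At 16 weeks Depdc5 had 12.4, 13.1 and 10.0 CPM and stood 0.58 ± 0.138 above 2 weeks (adjusted p = 0.00918). Both genes lay apart from 2 weeks at 8 and at 16 weeks in these mice, while the 8-week and 16-week groups overlapped. Rptor was higher by 0.31 ± 0.0883 at 8 against 2 weeks (adjusted p = 0.021), with 27.3, 30.9 and 31.9 CPM at 8 weeks, against 23.8, 23.3 and 23.8 CPM at 2 weeks.

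These calls did not hold in every fit with 1 library left out, and over all genes the number of calls moved too. In such fits it ranged from 1365 to 5475 at 8 against 2 weeks in asparaginase mice (4694 as reported). At 16 against 2 weeks it ranged from 1482 to 5144 (4305 as reported). Leaving out asparaginase replicate 1 of 2 weeks ended each of them: Tsc2 at 8 weeks was then 0.30 (adjusted p = 0.141), Depdc5 at 8 weeks 0.40 (adjusted p = 0.217), Rptor at 8 weeks 0.30 (adjusted p = 0.150), Tsc2 at 16 weeks 0.22 (adjusted p = 0.275) and Depdc5 at 16 weeks 0.50 (adjusted p = 0.127). Leaving out asparaginase replicate 1 of 8 weeks ended Tsc2 (0.26, adjusted p = 0.148), Depdc5 (0.39, adjusted p = 0.208) and Rptor (0.36, adjusted p = 0.0794) at 8 weeks. Rptor was also lost without replicate 2 (0.31, adjusted p = 0.0529) or replicate 3 (0.29, adjusted p = 0.0563) of asparaginase at 8 weeks. Tsc2 at 16 weeks was also lost without asparaginase replicate 3 of 2 weeks or any 1 asparaginase library of 16 weeks (0.24 to 0.28, adjusted p = 0.0691 to 0.215). Without the 2 libraries with squamous transcripts the 8-week values were 0.25 for Tsc2 (adjusted p = 0.345), 0.42 for Depdc5 (adjusted p = 0.329) and 0.37 for Rptor (adjusted p = 0.206). Without the 3 mixed-sex libraries Depdc5 at 8 weeks was 0.50 (adjusted p = 0.0520) and Tsc2 at 16 weeks 0.28 (adjusted p = 0.0785). With no filter on low counts Rptor at 8 weeks was 0.31 (adjusted p = 0.0621) and Tsc2 at 16 weeks 0.26 (adjusted p = 0.126). Rptor at 16 against 2 weeks, at 0.23 (0.04 to 0.42, adjusted p = 0.0729), passed without PBS replicate 1 of 2 weeks (0.26, adjusted p = 0.0378) or PBS replicate 3 of 8 weeks (0.25, adjusted p = 0.0432).

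In PBS mice the same genes had smaller fitted differences with age that did not pass. At 8 against 2 weeks they were 0.17 (-0.01 to 0.36) for Tsc2, 0.25 (-0.05 to 0.54) for Depdc5 and 0.21 (0.02 to 0.40) for Rptor. At 16 against 2 weeks they were 0.24 (0.05 to 0.42, adjusted p = 0.0537) for Tsc2, 0.32 (0.02 to 0.62) for Depdc5 and 0.14 (-0.05 to 0.33) for Rptor. As given above, the difference between treatments in these age effects, which is the same quantity as the difference between ages in the asparaginase effect, did not pass for any gene. Rheb was the PBS call at 16 weeks, higher by 0.26 ± 0.0855 (SE, adjusted p = 0.0394), with 28.8, 28.2 and 30.3 CPM at 16 weeks, against 27.1, 25.9 and 22.7 CPM at 2 weeks. The groups did not overlap. The Rheb call was lost in 10 of 18 fits with 1 library left out, which gave 0.23 to 0.28: those without PBS replicate 2 or 3 of 2 weeks, asparaginase replicate 2 or 3 of 8 weeks or any library of 16 weeks. It was also lost without the mixed-sex libraries (0.37, adjusted p = 0.0565) and without those with squamous transcripts (0.26, adjusted p = 0.0675).

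Flcn had a negative log2 fold change at both adult ages in both treatments and did not pass. Its log2 fold change against 2 weeks was -0.26 (-0.57 to 0.05) at 8 weeks and -0.38 (-0.69 to -0.07, adjusted p = 0.0694) at 16 weeks in asparaginase mice, and -0.30 (-0.62 to 0.01) and -0.13 (-0.44 to 0.18) in PBS mice. Flcn at 16 weeks in asparaginase mice passed in 2 of 18 fits with 1 library left out, those without asparaginase replicate 2 of 2 weeks or PBS replicate 1 of 8 weeks. Sesn3 and Rragd were also negative at 16 against 2 weeks in both treatments, and did not pass. Sesn3 was at -0.57 (-1.11 to -0.03, adjusted p = 0.108) in asparaginase mice and -0.33 (-0.87 to 0.21) in PBS mice. Rragd was at -0.36 (-0.93 to 0.21) and -0.23 (-0.80 to 0.33). At 8 against 2 weeks Sesn3 was at 0.14 in asparaginase mice and -0.13 in PBS mice. Tsc1 was at 0.32 (0.01 to 0.63, adjusted p = 0.11) at 8 weeks and 0.08 at 16 weeks in asparaginase mice (0.18 at 8 weeks without the libraries with squamous transcripts), and at 0.13 and 0.33 (0.01 to 0.64, adjusted p = 0.113) in PBS mice. Tsc1 at 8 weeks in asparaginase mice passed without asparaginase replicate 3 of 2 weeks or PBS replicate 1 of 8 weeks. Rragc, at 0.21 (-0.03 to 0.45) at 8 weeks in asparaginase mice, had groups apart but did not pass.

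Summed markers of stellate and endothelial cells lay lower in adults than at 2 weeks. The sum of 7 stellate cell genes was 443 to 850 CPM in asparaginase livers of 2 weeks, against 458 to 782 CPM in PBS livers of that age. In adults it was 205 to 407 CPM in asparaginase livers, against 193 to 320 CPM in PBS livers. The sum of 7 endothelial genes was 270 to 325 CPM in asparaginase livers of 2 weeks, against 227 to 288 CPM in PBS livers, and 173 to 222 CPM in asparaginase adults, against 166 to 219 CPM in PBS adults. No marker of either list was at 0. Over the 18 libraries the log2 endothelial sum had a Pearson r of -0.87 with Rptor, -0.83 with Tsc2, -0.76 with Depdc5 and -0.71 with Mtor, a description of libraries that share age groups and scaling. The part of cell composition in the age differences was not tested.

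Among adults, 0 of 10 differed between 16 and 8 weeks in PBS mice (0.413% of all genes passed with edgeR), with 0 at an unadjusted p under 0.05 (15.4% of all genes), 0 with groups apart (16.3% of all genes) and 0 by DESeq2 or limma-voom. In asparaginase mice 1 of 10 did (4.25% of all genes, 2.62% downward), Rragd, which was lower by 1.11 on the log2 scale at 16 weeks. Mtor, Rragd and Sesn3 were lower at 16 than at 8 weeks in asparaginase mice with no overlap, 3 of 10 genes where 19.4% of all genes had groups apart, 9.95% downward. The log2 fold changes were -0.21 (-0.49 to 0.08) for Mtor and -0.71 (-1.24 to -0.18, adjusted p = 0.137) for Sesn3. Sesn3 had 4.08, 4.27 and 5.38 CPM at 16 weeks, against 9.16, 6.75 and 7.12 CPM at 8 weeks.

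The Rragd calls depended on 1 library that was also high in muscle transcripts. In asparaginase mice Rragd was 0.75 ± 0.252 (SE, adjusted p = 0.0412) higher at 8 than at 2 weeks, and -1.11 ± 0.259 (adjusted p = 0.0329) at 16 against 8 weeks. Its levels were 1.92, 2.62 and 3.44 CPM at 2 weeks, 7.57, 2.59 and 2.37 CPM at 8 weeks and 1.79, 2.24 and 1.71 CPM at 16 weeks. Without asparaginase replicate 1 of 8 weeks the first difference was 0.20 (adjusted p = 0.662) and the second -0.53 (adjusted p = 0.622), and without both libraries with squamous transcripts they were 0.12 (adjusted p = 0.886) and -0.48 (adjusted p = 0.865). The first Rragd call was also lost without asparaginase replicate 1 or 2 of 2 weeks, replicate 2 of 8 weeks or replicate 1 of 16 weeks, or PBS replicate 1 of 16 weeks (0.61 to 0.84, adjusted p = 0.0518 to 0.283). The second was also lost without asparaginase replicate 2 of 8 weeks, any 1 asparaginase library of 16 weeks or PBS replicate 1 of 16 weeks (-1.25 to -0.88, adjusted p = 0.0508 to 0.294). Without the 3 mixed-sex libraries Rragd was at 0.89 (adjusted p = 0.0554) and -1.10 (adjusted p = 0.0573), and with no sex term at 0.65 (adjusted p = 0.179) and -1.13 (adjusted p = 0.127).

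Asparaginase replicate 1 of 8 weeks held 2050 CPM of 10 skeletal muscle genes, the most of all. The muscle sum was 136 to 2050 CPM in asparaginase livers of 8 weeks, against 265 to 743 CPM in PBS livers. At 16 weeks it was 2.41 to 17.2 CPM in asparaginase livers, against 39.4 to 223 CPM in PBS livers, and at 2 weeks 46.2 to 329 CPM in asparaginase livers, against 18.4 to 267 CPM in PBS livers. Of the 10 muscle genes, Tnnc2 alone was at 0 in every library of a group, in 5 of the 6 groups. Over the 18 libraries the Pearson r between log2 Rragd and the log2 muscle sum was 0.78, and 0.84 over the 17 others without the highest library. For the squamous sum the r was 0.59, and 0.17 without that library. The genes most like Rragd over the 18 libraries included Myf6 (r = 0.97), a muscle transcription factor, and Gm11716 (r = 0.95). Whether the Rragd reads came from muscle RNA was not tested.

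**Figure D4:**
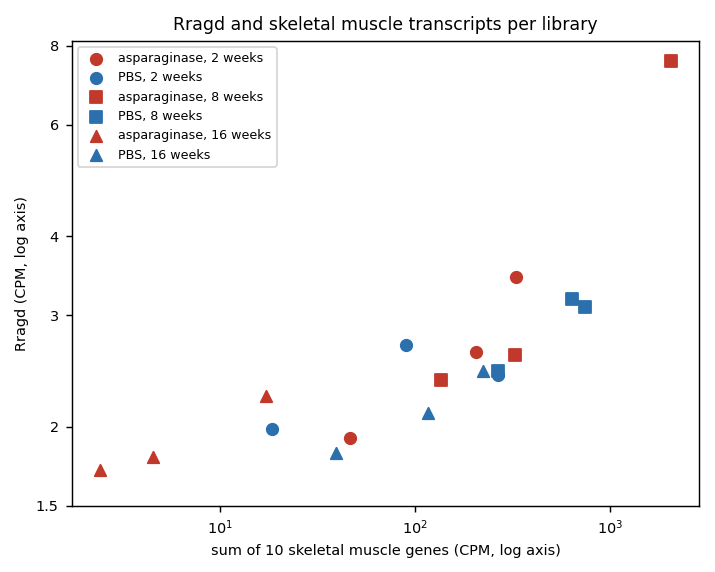
Rragd (vertical axis, CPM, log scale) against the summed level of 10 skeletal muscle genes (horizontal axis, CPM, log scale) in each of the 18 libraries, coloured by treatment and shaped by age. Libraries with more muscle transcripts have more Rragd, and asparaginase replicate 1 of 8 weeks lies at the top right with 2050 and 7.57 CPM.

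The highest Pearson r between any 2 of the 10 was 0.88, for Tsc2 with Depdc5, followed by 0.80 for Rptor with Tsc2. Mtor had r of 0.74 with Tsc2, 0.73 with Depdc5 and 0.72 with Tsc1. Flcn had r of -0.04 to Mtor, -0.43 to Rptor and -0.33 to Depdc5. Sesn3 had the lowest r of any pair, -0.50 to Rheb, and -0.33 to Rptor. Rragd had r of -0.32 to Rheb and 0.58 to Sesn3. These values are descriptions over 18 libraries, with age groups and scaling in common. Among all genes tested, the most alike were Rmnd5a for Mtor (r = 0.94), Abcd3 for Rptor (0.94), C7 for Tsc2 (0.95), Arhgap35 for Depdc5 (0.92), Klhl24 for Tsc1 (0.91), Glyat for Rheb (0.90), Amotl1 for Sesn3 (0.84), Atg4d for Rragc (0.84) and Grpel2 for Flcn (0.83).

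Around the 10 genes, 70 further genes of the pathway were listed, of which 68 were found and tested. With asparaginase, 1 of 68 passed at 2 weeks (0.432% of all genes), 2 at 8 weeks (0.364%), 0 at 16 weeks (0.234%) and 5 for the mean over ages (5.41%), 4 higher and 1 lower. At an unadjusted p under 0.05 the counts were 10 of 68 at 2 weeks (12.6% of all genes), 12 at 8 weeks (18.4%), 7 at 16 weeks (11.4%) and 21 for the mean (22.4%). DESeq2 and limma-voom were not used to count this list. The median log2 fold change of the mean effect over the 68 was 0.06, against 0.00 over all genes. The 5 that passed were 1 of 6 amino acid sensors (Sesn2), 1 of 2 folliculin partners (Fnip1), 1 of 8 Rag and lysosomal genes (Rraga) and 2 of 18 downstream effectors (Eif4b, Eif4ebp1). For the mean effect 0 of 9 mTOR complex subunits, 0 of 10 GATOR and KICSTOR genes, 0 of 13 upstream kinases and inhibitors and 0 of 2 Tsc and Rheb partners passed edgeR's test. At an unadjusted p under 0.05 these counts were 1, 4, 5 and 0, where 22.4% of all genes passed.

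Sesn2, a leucine sensor and relative of Sesn3 that ATF4 induces, had 12.9, 11.3 and 8.93 CPM in asparaginase livers of 2 weeks, against 5.78, 8.14 and 8.35 CPM in PBS livers. At 8 weeks it had 10.2, 9.54 and 8.95 CPM in asparaginase livers, against 8.03, 6.39 and 8.29 CPM in PBS livers, and at 16 weeks 8.40, 9.61 and 18.2 CPM in asparaginase livers, against 6.32, 5.17 and 6.34 CPM in PBS livers. Its asparaginase libraries were all above the PBS libraries at each age. Groups lay apart, in either direction, for 11, 16 and 15 of the 68 at 2, 8 and 16 weeks. The shares of all genes were 16.7%, 15.9% and 19.7%. The mean log2 fold change of Sesn2 was 0.70 ± 0.133 (SE, adjusted p = 0.0126), while that of Sesn3 was 0.27 (-0.05 to 0.59, adjusted p = 0.306). The Sesn2 call was lost without asparaginase replicate 1 of 2 weeks (0.61, adjusted p = 0.0991), replicate 1 of 8 weeks (0.74, adjusted p = 0.0505) or replicate 3 of 16 weeks (0.50, adjusted p = 0.0686). It was also lost without the mixed-sex libraries (0.69, adjusted p = 0.0590) or those with squamous transcripts (0.72, adjusted p = 0.107). Ddit4, which encodes an mTORC1 inhibitor that acts through Tsc2 and is another ATF4 target, had 30.6, 36.3 and 22.2 CPM in asparaginase livers of 2 weeks, against 6.16, 14.1 and 22.4 CPM in PBS livers. The groups of Ddit4 overlapped at every age, and its mean log2 fold change was 0.71 (0.18 to 1.23, adjusted p = 0.111).

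**Figure D5:**
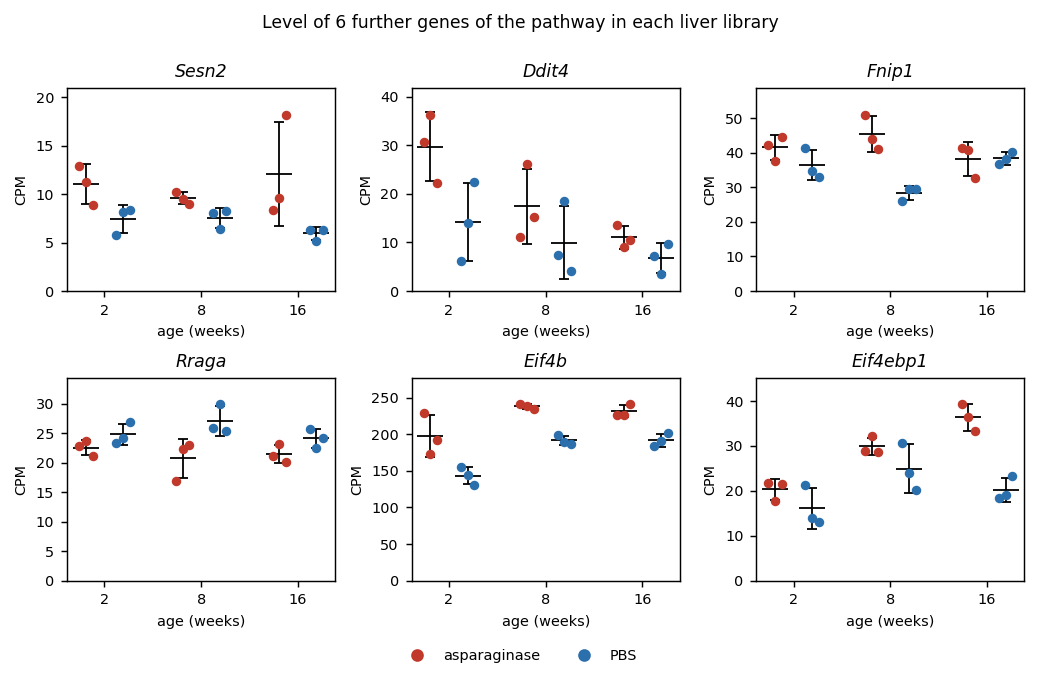
Sesn2, Ddit4, Fnip1, Rraga, Eif4b and Eif4ebp1 in CPM (vertical axis, from 0) by age in weeks, drawn as for the 10 genes above, with asparaginase left of PBS and mean and SD of 3 libraries in black. Sesn2 and Eif4b are higher in all asparaginase libraries than in the PBS libraries of the same age.

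Fnip1, the folliculin partner whose promoter is printed above, had 51.0, 44.0 and 41.1 CPM in asparaginase livers of 8 weeks, against 26.1, 29.5 and 29.6 CPM in PBS livers. The groups were clearly apart and the log2 fold change was 0.70 ± 0.116 (SE, adjusted p = 0.0398). At 2 weeks it was 0.23 (-0.03 to 0.49) and at 16 weeks -0.09 (-0.35 to 0.17), where Flcn was at 0.46 and 0.21. The mean over ages for Fnip1 was 0.28 ± 0.0682 (adjusted p = 0.0338). The 8-week call was lost in 13 of 18 fits that left out 1 library (0.54 to 0.87), and the mean call in 12 of 18 (0.23 to 0.34). The 8-week call passed without replicate 1 or 3 of PBS at 2 weeks, asparaginase replicate 1 of 2 weeks, PBS replicate 2 of 8 weeks or asparaginase replicate 3 of 8 weeks. The mean passed without PBS replicate 1 or asparaginase replicate 2 of 2 weeks, any 1 PBS library of 8 weeks or asparaginase replicate 3 of 8 weeks. Without the 2 libraries with squamous transcripts, the 8-week value was 0.47 and the mean 0.21, and neither passed. Without the 3 mixed-sex libraries the 8-week value of Fnip1 was 0.72 (adjusted p = 0.0740) and the mean 0.30 (adjusted p = 0.114).

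Rraga, the usual partner of RagC in the Rag pair, was lower in asparaginase livers. It had 16.9, 22.4 and 22.9 CPM in asparaginase livers of 8 weeks, against 25.8, 29.9 and 25.5 CPM in PBS livers. It fell by 0.50 at 8 weeks (adjusted p = 0.0497), a call lost in 16 of 18 fits with 1 library left out (-0.60 to -0.39), all but those without PBS replicate 1 of 2 weeks or asparaginase replicate 3 of 8 weeks. Without the mixed-sex libraries the 8-week value was -0.48, and without those with squamous transcripts -0.39, and neither passed. At 2 and 16 weeks the Rraga groups overlapped. The mean log2 fold change was -0.29 ± 0.0551 (SE, adjusted p = 0.0131). That mean was -0.25 (adjusted p = 0.0721) without asparaginase replicate 1 of 8 weeks and -0.26 (adjusted p = 0.0727) without asparaginase replicate 3 of 16 weeks. It was -0.30 (adjusted p = 0.0661) without the mixed-sex libraries, -0.25 (adjusted p = 0.155) without those with squamous transcripts and -0.23 (adjusted p = 0.0716) with no sex term.

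Eif4b, a translation initiation factor phosphorylated downstream of mTORC1, had 228, 173 and 192 CPM in asparaginase livers of 2 weeks, against 156, 144 and 131 CPM in PBS livers. Its groups did not overlap at any age (shares of all genes as given for Sesn2), and the mean log2 fold change was 0.38 ± 0.0552 (SE, adjusted p = 0.00358). It passed in all 18 fits with 1 library left out, but not without the 3 mixed-sex libraries (0.40, adjusted p = 0.0534) or the 2 with squamous transcripts (0.37, adjusted p = 0.0696). The 2-week difference of 0.54 (adjusted p = 0.0319) was lost in 11 of 18 such fits (0.47 to 0.58), and passed without asparaginase replicate 2 of 2 weeks, any 1 PBS library of 8 weeks, PBS replicate 3 of 16 weeks, asparaginase replicate 1 of 8 weeks or asparaginase replicate 3 of 16 weeks. It was 0.59 without the mixed-sex libraries and 0.54 without those with squamous transcripts, and neither passed. Eif4ebp1, which encodes the translational repressor 4E-BP1 and is an ATF4 target, had 39.3, 36.5 and 33.4 CPM in asparaginase livers of 16 weeks, against 18.4, 19.0 and 23.4 CPM in PBS livers. Its mean log2 fold change was 0.49 ± 0.105 (adjusted p = 0.0209), which 5 of 18 fits with 1 library left out lost (0.46 to 0.55, adjusted p = 0.0585 to 0.1). Those 5 left out asparaginase replicate 1 of 2 weeks, replicate 1 of 8 weeks or replicate 3 of 16 weeks, or PBS replicate 2 of 8 weeks or replicate 3 of 16 weeks. Without the libraries with squamous transcripts it was 0.49 (adjusted p = 0.146). The Eif4ebp1 groups overlapped at 2 and 8 weeks.

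More of the wider pathway passed with age, as did more of all genes. In PBS mice 18 of 68 genes passed at 8 against 2 weeks (31.7% of all genes), 14 higher and 4 lower, and 16 of 68 at 16 against 2 weeks (27.8% of all genes), 12 higher and 4 lower. In asparaginase mice the counts were 11 higher and 5 lower at 8 weeks (29% of all genes), and 13 higher and 5 lower at 16 weeks (26.6% of all genes). Grb10 fell the most among the 68 in PBS mice; it encodes an adaptor from an imprinted gene that restrains insulin signalling and is phosphorylated by mTORC1. Grb10 had 3.06, 3.18 and 5.2 CPM in PBS livers of 8 weeks, against 23.5, 54.6 and 59.6 CPM at 2 weeks, a log2 fold change of -3.79. In asparaginase livers Grb10 had 7.27, 3.19 and 3.47 CPM at 8 weeks, against 40.8, 63.8 and 55.5 CPM at 2 weeks (-3.36). Irs2, an insulin receptor substrate, fell by 1.84 at 8 against 2 weeks in PBS mice and by 1.92 in asparaginase mice. Grb10 and Irs2 passed at 8 against 2 weeks in all 18 fits with 1 library left out, in both treatments. Without the mixed-sex libraries the PBS values at 8 weeks were -4.11 for Grb10 and -1.99 for Irs2, and both passed. Irs2 in asparaginase mice was at -2.77 without the libraries with squamous transcripts. Deptor, an mTOR-binding inhibitor, was higher by 0.58 at 8 and 0.80 at 16 weeks than at 2 weeks in PBS mice. Without PBS replicate 3 of 2 weeks these Deptor values were 0.41 (adjusted p = 0.184) and 0.63 (adjusted p = 0.0581), and without PBS replicate 2 of 8 weeks the first was 0.55 (adjusted p = 0.0689). Prkaa2, a catalytic subunit of the energy sensor AMPK, was higher by 0.85 at 16 than at 2 weeks in PBS mice (adjusted p = 0.00616), and by 0.62 (adjusted p = 0.138) without PBS replicate 3 of 2 weeks. Without the mixed-sex libraries the PBS values were 0.83 and 1.05 for Deptor at 8 and 16 weeks and 1.23 for Prkaa2 at 16 weeks (adjusted p = 0.0246, 0.00868 and 0.00709).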

How the data were processed

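The authors deposited 1 table of whole-number counts per gene for the 18 libraries. The submitters' processing notes list TopHat2 (2.0.9), TopHat, DESeq2, GRCm38 and mm10 without roles. Read counter and strand setting: not given in the sources used here. Genes were filtered with edgeR's filterByExpr (minimum count 10, minimum total 15), leaving 16213 of 37315. A quasi-likelihood model (edgeR 4.0.16, R 4.3.3, TMM scaling) covered all 18 libraries with 6 group terms and a sex term within age, with 9 residual degrees of freedom. Benjamini-Hochberg adjustment ran over all genes tested in a comparison, with a threshold of 0.05. CPM were computed here from the deposited counts. Correlations used log2(CPM + 0.5). The tests were checked on simulated counts.

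The 10 genes, the pathway lists and the marker lists were chosen with earlier results of these data known. By rule, the text takes the 10 genes, Asns, Sesn2, Ddit4, pathway genes past the threshold (up to 4 by smallest p for each list and comparison) and the 3 genes most alike in level. Not every gene that the rule took is printed. Nothing says that the mice came from separate litters, so p-values measure the spread between these libraries. Alternatives were no sex term, no filter, RLE or total-count scaling, DESeq2 1.42.0, limma-voom (limma 3.58.1), 1 age alone, and fits without libraries. Symbols came from GENCODE M21 for 35449 genes, and promoters from RefSeq for all 10.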

Additional observations from a re-analysis of the deposited data

How the results depend on the processing

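Of the 130 fitted effects of the 10 genes, 48 changed sign in at least 1 alternative (122 of 3410 values). None of these was called, and their largest log2 fold change was 0.68. Under total-count scaling, signs were read relative to its shift in the median of all genes. Small shifts were not corrected (0.032 for asparaginase against PBS at 2 weeks, -0.078 for PBS mice at 16 against 8 weeks). Signs as fitted under that scaling were not counted. Leaving that scaling out, 46 effects changed sign (117 of 3280 values), again with none called. The number of the 10 that passed moved with several settings, and the cause was not tested. With no sex term it was 0 for the mean asparaginase effect, 0 for PBS mice at 16 against 2 weeks and 0 for asparaginase mice at 16 against 8 weeks. With no filter it was 0 for PBS mice at 8 and 0 at 16 against 2 weeks. Scaling by total counts alone moved the median of all genes by -0.791 to 0.365, and its counts, not corrected for that shift, were 8 (asparaginase against PBS at 8 weeks), 7 (mean effect), 9 and 10 (PBS mice, 8 and 16 against 2 weeks), and 2 and 8 (asparaginase mice, 8 and 16 against 2 weeks). For 8 and 16 against 2 weeks the shift was -0.714 and -0.791 in PBS mice and -0.383 and -0.576 in asparaginase mice. In PBS mice it was downward and larger than any rise of the 10 given above. Those counts are therefore no measure of a rise with age. For asparaginase against PBS the shift was 0.365 at 8 weeks and 0.214 for the mean effect. Relative to the shift no called gene of the 10 changed sign. Over all genes, the largest count in any alternative was 3111 for asparaginase against PBS at 8 weeks and 4283 for the mean effect. It was 11939 and 12319 for PBS mice, and 7724 and 10439 for asparaginase mice, at 8 and 16 against 2 weeks. The reported counts over all genes were 59, 877, 5137, 4501, 4694 and 4305 in that order. DESeq2 gave 1 at 8 weeks and limma-voom 2 for PBS mice at 16 against 2 weeks. Without the 3 mixed-sex libraries it was 0 for the mean effect, 0 and 0 for PBS mice at 8 and 16 against 2 weeks, 3 for asparaginase mice at 8 against 2 weeks and 0 at 16 against 8 weeks. Without the 2 libraries with squamous transcripts all 5 of these counts were 0. The 2 preceding fits each left 1 library in a group. Leaving out 1 library at a time gave 0 to 2 for the mean effect. It gave 0 to 2 and 0 to 3 for PBS mice at 8 and 16 against 2 weeks. For asparaginase mice it gave 0 to 6 and 0 to 5 at 8 and 16 against 2 weeks, and 0 to 2 at 16 against 8 weeks. The other counts stayed at 0.

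Over all genes, counts for the mean effect ranged from 87 to 4283 (877 as reported), and at 8 weeks from 0 to 3111 (59 as reported). With 1 library left out, counts over all genes for the mean effect were 134 to 1271. For PBS mice at 8 and 16 against 2 weeks they were 2265 to 5585 and 1896 to 5270. For asparaginase mice at 16 against 8 weeks they were 3 to 900 (689 as reported). No paired analysis was possible because replicate numbers follow deposition order and pair no mice. With 3 libraries a group, the 95% intervals of Rragd and Sesn3, the least abundant genes per kb, were more than 1 log2 unit wide in each comparison of asparaginase with PBS at a single age.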
